A study of Mus musculus with 2 samples.

Results

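The genes described are the 36 members of the glutamate receptor families and of the scaffolds and kinases beneath them that were listed by symbol, out of 24411 genes counted. They comprise the AMPA receptor subunits *Gria1* to *Gria4*, the kainate receptor subunits *Grik1* to *Grik5*, the NMDA receptor subunits *Grin1*, *Grin2a* to *Grin2d*, *Grin3a* and *Grin3b*, and the delta receptor subunit *Grid1*. They further comprise the metabotropic receptors *Grm2* to *Grm8*, the membrane-associated guanylate kinases (MAGUKs) *Dlg1* to *Dlg4*, *Shank1* to *Shank3*, *Homer1* to *Homer3*, and the calcium/calmodulin-dependent kinases *Camk2a* and *Camk2b*. All 36 were found in the count tables. They were measured in mouse brain at embryonic day 16.5, untreated and fresh frozen, after laser capture microdissection (LCM), in which areas of a stained section are cut out under a microscope. From each of 2 areas 1 bulk RNA-seq library was made, namely from the germinal subventricular zone (SVZ), in which progenitors divide, and from the cortex, in which their neurons settle. The study used these libraries as the reference for a light-directed barcoding method. Neither the labels nor the methods give the mouse strain or how many embryos each library came from.

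Glutamate is the main excitatory transmitter of the brain. AMPA and kainate receptors are ion channels that carry fast currents, NMDA receptors are channels that admit calcium when glutamate meets a depolarized membrane, and metabotropic receptors signal through G proteins. At mature synapses MAGUK, Shank and Homer proteins hold these receptors in the postsynaptic density, and CaMKII responds there to the calcium that enters. Before synapses form, progenitors and migrating neurons already carry some of the receptors.

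Levels are given as CPM, the reads of a gene per 1000000 reads assigned to genes. The SVZ library held 51435667 such reads and the cortex library 22050693, and a single read equals 0.0194 CPM in the former and 0.0454 CPM in the latter. Ratios are log2 of SVZ CPM over cortex CPM, so that negative values mean a higher level in the cortex, and each is followed by its exact 95% Clopper-Pearson interval. With 1 library per area there is no replicate check and no test. The intervals cover only the counting error of reads. Reads copied by PCR and lacking molecular identifiers do not each stand for a separate molecule. For molecules the intervals may therefore be too narrow. In tissue pieces, fewer cells of a type and less RNA per cell cannot be told apart. Where a library held 0 reads, a limit of 3 reads in that library was used and the ratio is a bound.

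The area labels were checked with marker genes. Of 10 progenitor markers, all 10 were at least 4-fold higher in the SVZ, with *Pax6* at 9245 reads in the SVZ and 15 in the cortex, *Eomes* at 11659 and 2, and *Mki67* at 13865 and 124. All 10 neuronal markers were higher in the cortex, with log2 ratios from -3.51 to -0.32, among them *Tubb3* at -1.77, *Map2* at -1.31 and *Neurod6* at -0.81. Their summed level was 3149 CPM in the SVZ, of which *Neurod6* gave 1592, and 10256 CPM in the cortex, of which it gave 2797. RNA of the neuronal marker genes was thus also present in the SVZ library. Among the markers of other cells, the 9 interneuron genes had no common direction. Of the 8 that averaged 1 CPM or more, 4 had an interval towards the SVZ (*Gad1*, *Gad2*, *Dlx1* and *Dlx5*, log2 0.38 to 1.17) and 3 towards the cortex (*Lhx6*, *Sst* and *Npy*, -4.73 to -0.29), with a median of 0.21. Their sums of 155 CPM in the SVZ and 514 CPM in the cortex turn on *Npy*, at 14.3 and 379 CPM. The 9 genes of glia and glial precursors summed to 71.2 and 12.2 CPM, of which *Aldh1l1* gave 52.8 and 0 CPM. *Aldh1l1*, *Aqp4* and *Gfap* had 0 reads in the cortex. The genes of oligodendrocyte precursors had no common direction. *Olig1* (log2 -0.79) and *Sox10* (-1.09) had intervals towards the cortex, and *Cspg4* (1.85) had one towards the SVZ. Those of *Pdgfra* (-0.13) and *Olig2* (0.83) held 0, and *Sox10* and *Olig2* averaged under 1 CPM. The 8 microglial genes were all higher in the SVZ and summed to 64.2 and 6.80 CPM. The 8 vessel genes, with 3 intervals towards the cortex and 3 towards the SVZ, summed to 145 and 111 CPM. The part of these cells in the values of the glutamate genes was not tested.

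Most of the glutamate receptor and scaffold genes were higher in the cortex. Together they took 50082 reads or 974 CPM in the SVZ and 54853 reads or 2488 CPM in the cortex, a log2 ratio of the sums of -1.35. Of the 36 members, 27 averaged at least 1 CPM over the libraries, and 9 did not (*Grin2a*, *Grin2c*, *Grin2d*, *Grin3b*, *Grm4*, *Grm6*, *Grm7*, *Grm8* and *Shank3*). Among the 27, 10 were at least 4-fold higher in the cortex, or 37.0%, where 7.01% of the 12738 genes with that average were. These were *Grik3*, *Grin1*, *Grin2b*, *Grm2*, *Grm3*, *Grm5*, *Dlg2*, *Shank1*, *Homer1* and *Camk2b*. *Camk2a* alone among the 27 exceeded 4-fold towards the SVZ, or 3.70%, where 10.2% of the genes were. The interval lay wholly towards the cortex for 20 of the 27, or 74.1%, against 38.6% of the genes, and wholly towards the SVZ for 4, or 14.8%, against 48.2%. The 4 were *Grik1*, *Grik2*, *Homer3* and *Camk2a*. *Grid1*, *Dlg1* and *Dlg4* had intervals that held 0. The median log2 ratio of the 27 was -1.02, and that of the 12738 genes 0.11.

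**Figure D1:**
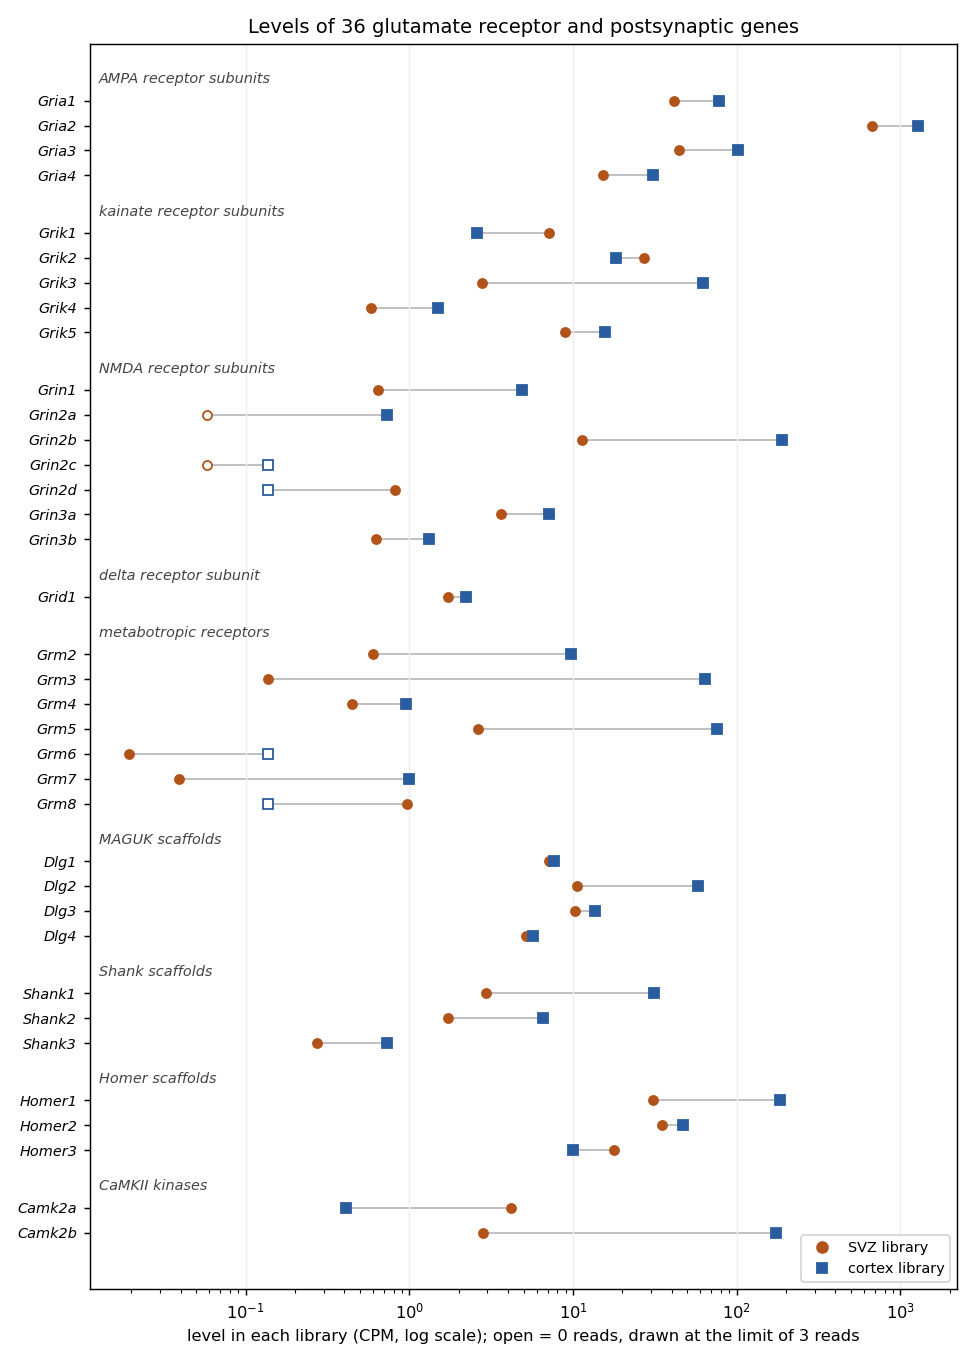
Levels of the 36 genes in CPM on a log axis, grouped by family, with circles for the SVZ library and squares for the cortex library. Open symbols mark 0 reads and are drawn at the limit of 3 reads (0.0583 CPM in the SVZ, 0.136 CPM in the cortex). *Gria2* lies far to the right of all others in both libraries, and the widest gaps between libraries are those of *Grm3* and *Camk2b*.

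Upstream sequences are shown for 4 genes, namely *Gria2*, the most counted member, *Grm3* and *Camk2b*, the members most in favour of the cortex, and *Grin2d*, which like *Grm6* and *Grm8* had reads in the SVZ only. Each is the 250 bases before the RefSeq start on GRCm38.p6, read 5′ to 3′ on the gene's strand, which is the minus strand for all 4. Capitals mark matches to the motifs searched, each on both strands. The motifs were a left piece of the element bound by the neuronal gene repressor REST, written CAGCACC, the right piece of that element, written GGACAG, the GC box of many housekeeping promoters, written GGGCGG, the TATA box, written TATAAA, and an E-box of proneural factors, written CAGATG. The *Gria2* window is chr3:80802836-80803085, that of *Grm3* chr5:9725353-9725602, that of *Camk2b* chr11:6065749-6065998 and that of *Grin2d* chr7:45866682-45866931.
Gria2: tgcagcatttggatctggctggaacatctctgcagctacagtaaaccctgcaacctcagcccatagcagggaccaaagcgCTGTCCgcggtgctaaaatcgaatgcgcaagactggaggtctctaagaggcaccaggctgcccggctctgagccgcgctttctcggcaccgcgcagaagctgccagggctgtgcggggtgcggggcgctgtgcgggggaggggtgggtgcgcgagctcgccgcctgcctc
Grm3: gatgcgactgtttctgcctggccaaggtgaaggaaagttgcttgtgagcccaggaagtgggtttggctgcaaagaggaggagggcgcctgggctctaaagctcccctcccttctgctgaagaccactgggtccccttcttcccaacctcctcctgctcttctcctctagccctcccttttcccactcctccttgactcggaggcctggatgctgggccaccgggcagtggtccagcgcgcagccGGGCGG
Camk2b: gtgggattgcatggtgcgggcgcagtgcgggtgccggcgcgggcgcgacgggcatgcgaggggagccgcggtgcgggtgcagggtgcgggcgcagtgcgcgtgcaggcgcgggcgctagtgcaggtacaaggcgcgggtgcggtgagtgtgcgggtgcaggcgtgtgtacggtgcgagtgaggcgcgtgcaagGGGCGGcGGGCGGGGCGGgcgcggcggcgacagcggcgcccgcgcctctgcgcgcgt
Grin2d: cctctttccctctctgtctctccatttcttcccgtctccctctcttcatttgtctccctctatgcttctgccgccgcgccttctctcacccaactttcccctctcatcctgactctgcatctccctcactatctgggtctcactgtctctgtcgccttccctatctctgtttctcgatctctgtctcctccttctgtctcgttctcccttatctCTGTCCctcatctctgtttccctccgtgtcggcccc

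The windows of *Gria2* and *Grm3* lie upstream of the gene as GENCODE M21 draws it, and those of *Camk2b* and *Grin2d* lie inside it, past the start of a longer transcript. Bases are counted from 1 at the left end. The *Gria2* window held GGACAG on the other strand from base 81, and that of *Grin2d* held it on the other strand from base 215. The *Grm3* window ended in GGGCGG, from base 245. The *Camk2b* window held GGGCGG from bases 194, 201 and 206, the last 2 sharing 1 base. Of the 36 members, 24 had at least 1 such window (37 windows) among the 32851 windows of RefSeq genes, and their median GC content was 62.0%, where that of all windows was 52.4%. The *Camk2b* window reached 78.4% GC, the *Gria2* window 64.8%, the *Grm3* window 62.4% and the *Grin2d* window 54.4%. GGGCGG was found in 46.0% of the members' windows and 32.7% of all windows, GGACAG in 18.9% and 18.7%, CAGCACC in 2.7% and 5.73%, TATAAA in 10.8% and 12.4%, and CAGATG in 5.41% and 14.4%. Matches had to be exact, so a piece with a changed base was not marked or counted. In that form CAGCACC was found for *Grm2* alone. A match is a description of the letters, and no binding was measured.

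All 4 AMPA receptor subunits were higher in the cortex, by similar folds. *Gria2*, which makes the channel nearly impermeable to calcium once its RNA is edited, had 34691 reads in the SVZ and 28234 in the cortex, or 674 and 1280 CPM (GRCm38 chr3:80681450-80802835, minus strand). It was 1.90-fold higher in the cortex (log2 -0.92, interval -0.95 to -0.90). *Gria2* alone held 69.3% of the reads of the 36 genes in the SVZ and 51.5% in the cortex.

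*Gria1*, whose product is brought to synapses in plasticity, stood at 41.1 CPM in the SVZ (2115 reads) and 78.3 CPM in the cortex (1727 reads), a log2 ratio of -0.93 (-1.02 to -0.84). *Gria3* stood at 44.5 CPM (2287 reads) and 102 CPM (2257 reads), or -1.20 (-1.29 to -1.12). *Gria4*, a subunit with fast kinetics, stood at 15.2 CPM (781 reads) and 30.7 CPM (677 reads), or -1.02 (-1.17 to -0.87). None of the 4 reached 4-fold.

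The subunits of a family were also compared with each other, as the log2 ratio of the first minus that of the second, from which library size and gene length cancel. *Gria1* and *Gria2* divided between the areas alike to within counting error, with a difference of -0.0047 (-0.10 to 0.09), and *Gria4* differed from *Gria2* by -0.09 (-0.24 to 0.06). *Gria3* differed from *Gria2* by -0.28 (-0.37 to -0.19), an interval that excluded 0. The make-up of the family was taken from CPM per kb of exon length, the scale on which genes can be compared. On it *Gria2* gave 76.0% of the AMPA subunit level in the SVZ and 74.5% in the cortex, *Gria1* 11.9% and 11.7%, *Gria3* 7.90% and 9.39%, and *Gria4* 4.22% and 4.40%. With the longest transcript as length *Gria3* came before *Gria1* in both libraries, at 10.2% and 8.85% in the SVZ. The shares were thus close between the areas while the summed level went from 775 CPM in the SVZ to 1492 CPM in the cortex.

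The kainate receptor subunits split by area. *Grik3* was the most cortical of them, with 142 reads in the SVZ and 1367 in the cortex, or 2.76 and 62.0 CPM (chr4:125490700-125714173, plus strand). This is a 22.5-fold higher level in the cortex (log2 -4.49, -4.75 to -4.24). *Grik1* and *Grik2* were higher in the SVZ instead. *Grik1* had 368 reads in the SVZ and 57 in the cortex, or 7.15 and 2.58 CPM (1.47, 1.06 to 1.90), and *Grik2* had 1394 and 401 reads, or 27.1 and 18.2 CPM (0.58, 0.41 to 0.74). These 3 genes encode the subunits that can form channels without *Grik4* or *Grik5*.

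*Grik4* and *Grik5* encode the high-affinity subunits, which need a partner to form a channel. *Grik5* stood at 8.98 CPM in the SVZ (462 reads) and 15.7 CPM in the cortex (347 reads), a log2 ratio of -0.81 (-1.01 to -0.60). *Grik4* was near the expression minimum, with 30 reads (0.583 CPM) and 33 reads (1.50 CPM), or -1.36 (-2.12 to -0.60).

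Relative to *Grik2*, *Grik3* differed by -5.06 (-5.37 to -4.76), *Grik5* by -1.38 (-1.65 to -1.12) and *Grik1* by 0.89 (0.45 to 1.35). The order of the kainate subunits by CPM per kb accordingly differed between the libraries. In the SVZ *Grik2* gave 38.9% of the family, *Grik5* 33.1%, *Grik1* 20.3%, *Grik3* 5.86% and *Grik4* 1.86%. In the cortex *Grik3* gave 57.8%, *Grik5* 25.5%, *Grik2* 11.5%, *Grik1* 3.22% and *Grik4* 2.10%. The summed level of the family was 46.6 CPM in the SVZ and 100.0 CPM in the cortex.

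The NMDA receptor subunits were low in the SVZ, and 1 subunit dominated the cortex. *Grin2b*, the glutamate-binding subunit prevalent in the embryonic forebrain, had 580 reads in the SVZ and 4194 in the cortex, or 11.3 and 190 CPM (chr6:135713233-136173511, minus strand). It was 16.9-fold higher in the cortex (log2 -4.08, -4.20 to -3.95). *Grin1*, the subunit without which no NMDA receptor assembles, was counted far less, with 33 reads (0.642 CPM) in the SVZ and 108 reads (4.90 CPM) in the cortex, a log2 ratio of -2.93 (-3.54 to -2.36). With a pseudocount of 1 CPM the ratio of *Grin1* was -1.85, short of 4-fold.

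*Grin1* was thus at 4.90 CPM in a library where *Grin2b* was at 190, and per kb of exon at 0.505 CPM where *Grin2b* was at 7.66. The *Grin1* count is uncertain, since 13.5% of its exon bases in GENCODE M21 are shared with the antisense gene *Grin1os*. Reads over both genes were not counted, and the sum of the counts made for each strand apart was 39 in the SVZ and 154 in the cortex. The library does not keep the strand, so that sense and antisense reads cannot be told apart.

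*Grin3a*, which lowers the calcium permeability of the receptor, stood at 3.62 CPM in the SVZ (186 reads) and 7.17 CPM in the cortex (158 reads), a log2 ratio of -0.99 (-1.30 to -0.67). Its homologue *Grin3b* stood at 0.622 CPM (32 reads) and 1.32 CPM (29 reads), or -1.08 (-1.85 to -0.30). For *Grin3b* 32.1% of the exon bases are shared with *Tmem259* on the opposite strand, and the strand-wise sums were 68 and 50 reads.

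The other glutamate-binding subunits were at or near 0. *Grin2a*, which joins the receptor mainly after birth, had 0 reads in the SVZ and 16 in the cortex (0.726 CPM), which makes it at least 12.4-fold higher there against the limit of 3 reads (log2 -3.64), with an exact interval that ends at -3.17. *Grin2d* had 42 reads in the SVZ (0.817 CPM) and 0 in the cortex, at least 6.00-fold higher in the SVZ against that limit (log2 2.59, interval from 2.22), and 18.0 cortex reads correspond to the same CPM. *Grin2c*, known mainly from the cerebellum, had 0 reads in both libraries, which allows up to 0.0583 CPM in the SVZ and 0.136 CPM in the cortex. Counts of 0 were common at such levels. Of the 1197 genes with 20 to 49 reads in the SVZ, 26.5% had 0 in the cortex, and of the 919 genes with 10 to 19 reads in the cortex, 15.6% had 0 in the SVZ.

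Relative to *Grin2b*, *Grin3a* differed by 3.09 (2.75 to 3.43) and *Grin1* by 1.14 (0.52 to 1.73), both less in favour of the cortex. The difference of *Grin1* was 0.04 when the SVZ library was thinned at random to the depth of the cortex library, a draw that keeps only some of its 33 SVZ reads. The difference of *Grin2d* from *Grin2b* was 6.66 with its cortex count set at the limit of 3 reads, with an exact interval from 6.29, and that of *Grin2a* could not be resolved (interval up to 0.91). By CPM per kb *Grin2b* gave 40.3% of the NMDA subunit level in the SVZ and 83.4% in the cortex. In the SVZ it was followed by *Grin3a* (26.2%), *Grin3b* (16.8%), *Grin2d* (10.9%) and *Grin1* (5.87%). In the cortex *Grin3a* gave 6.36%, *Grin1* 5.50%, *Grin3b* 4.34% and *Grin2a* 0.44%. The order behind these shares was not stable. With the longest transcript as length *Grin3a* (33.5%) came before *Grin2b* (32.5%) in the SVZ, and *Grin1* (11.0%) before *Grin3a* (9.15%) in the cortex. With the strand-wise sums *Grin3b* (29.7%) came before *Grin3a* (21.8%) in the SVZ. *Grin2b* led in the cortex under each of these settings, at 75.6% to 83.4%. The summed level was 17.0 CPM in the SVZ and 204 CPM in the cortex.

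The delta receptor subunit *Grid1*, a relative of the ionotropic receptors that binds cerebellin at synapses, had 88 reads in the SVZ and 49 in the cortex, or 1.71 and 2.22 CPM. Its log2 ratio of -0.38 could not be told from 0 at this depth (-0.90 to 0.16).

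The metabotropic receptors held the largest ratio among the members. *Grm3*, which lowers cyclic AMP through Gi proteins, had 7 reads in the SVZ and 1402 in the cortex, or 0.136 and 63.6 CPM (chr5:9485541-9725170, minus strand). The cortex level was 467-fold higher (log2 -8.87, -10.19 to -7.82). The SVZ count is small, and 3270 reads would have been needed there for the CPM of the cortex. *Grm2*, the other group II receptor, had 31 reads in the SVZ and 214 in the cortex, or 0.603 and 9.70 CPM, a log2 ratio of -4.01 (-4.60 to -3.46).

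*Grm5*, a group I receptor that releases calcium from stores through Gq, had 136 reads in the SVZ and 1672 in the cortex, or 2.64 and 75.8 CPM. It was 28.7-fold higher in the cortex (log2 -4.84, -5.10 to -4.59). *Grm3* was more in favour of the cortex than *Grm5*, by -4.03 (-5.37 to -2.94), or by -1.43 with a pseudocount of 1 CPM. *Grm2*, *Grm3* and *Grm5*, the 3 metabotropic receptors that reached a mean of 1 CPM, were each more than 16-fold higher in the cortex. *Grm2* and *Grm3* reached that mean only through the cortex, with 0.603 and 0.136 CPM in the SVZ. The minimum thus favours this direction for them.

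The group III receptors *Grm4*, *Grm6*, *Grm7* and *Grm8*, stayed below that mean. These receptors couple to Gi proteins and act mainly at presynaptic endings, except *Grm6*, which acts on the dendrites of retinal bipolar cells. *Grm4* had 23 reads (0.447 CPM) in the SVZ and 21 reads (0.952 CPM) in the cortex, a log2 ratio of -1.09 (-2.01 to -0.16). *Grm7* had 2 and 22 reads, or 0.0389 and 0.998 CPM, a log2 ratio of -4.68 with the wide interval from -7.81 to -2.66, and its difference from *Grm5* was 0.16 (-2.99 to 2.21). *Grm8* was the reverse, with 50 reads in the SVZ (0.972 CPM) and 0 in the cortex, at least 7.15-fold higher in the SVZ against the limit of 3 reads (log2 2.84, interval from 2.49). Equal CPM would have given 21.4 cortex reads. Of the 962 genes with 50 to 99 SVZ reads, 14.6% had 0 in the cortex. *Grm6* had 1 read in the SVZ and 0 in the cortex, and no ratio was formed.

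By CPM per kb *Grm3* gave 68.2% of the metabotropic receptor level in the cortex, *Grm5* 24.2% and *Grm2* 6.49%, and the others together the small remainder. In the SVZ, where the 7 genes summed to only 250 reads, *Grm5* gave 42.4%, *Grm2* 20.2%, *Grm8* 16.1%, *Grm4* 12.3% and *Grm3* 7.33%. With the longest transcript as length *Grm8* (24.9%) came before *Grm2* (15.7%) there. With a pseudocount of 1 CPM *Grm3* (20.0%) came before *Grm5* (19.1%) in the SVZ, so the leading receptor was not stable either. The summed level was 4.86 CPM in the SVZ and 151 CPM in the cortex.

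**Figure D2:**
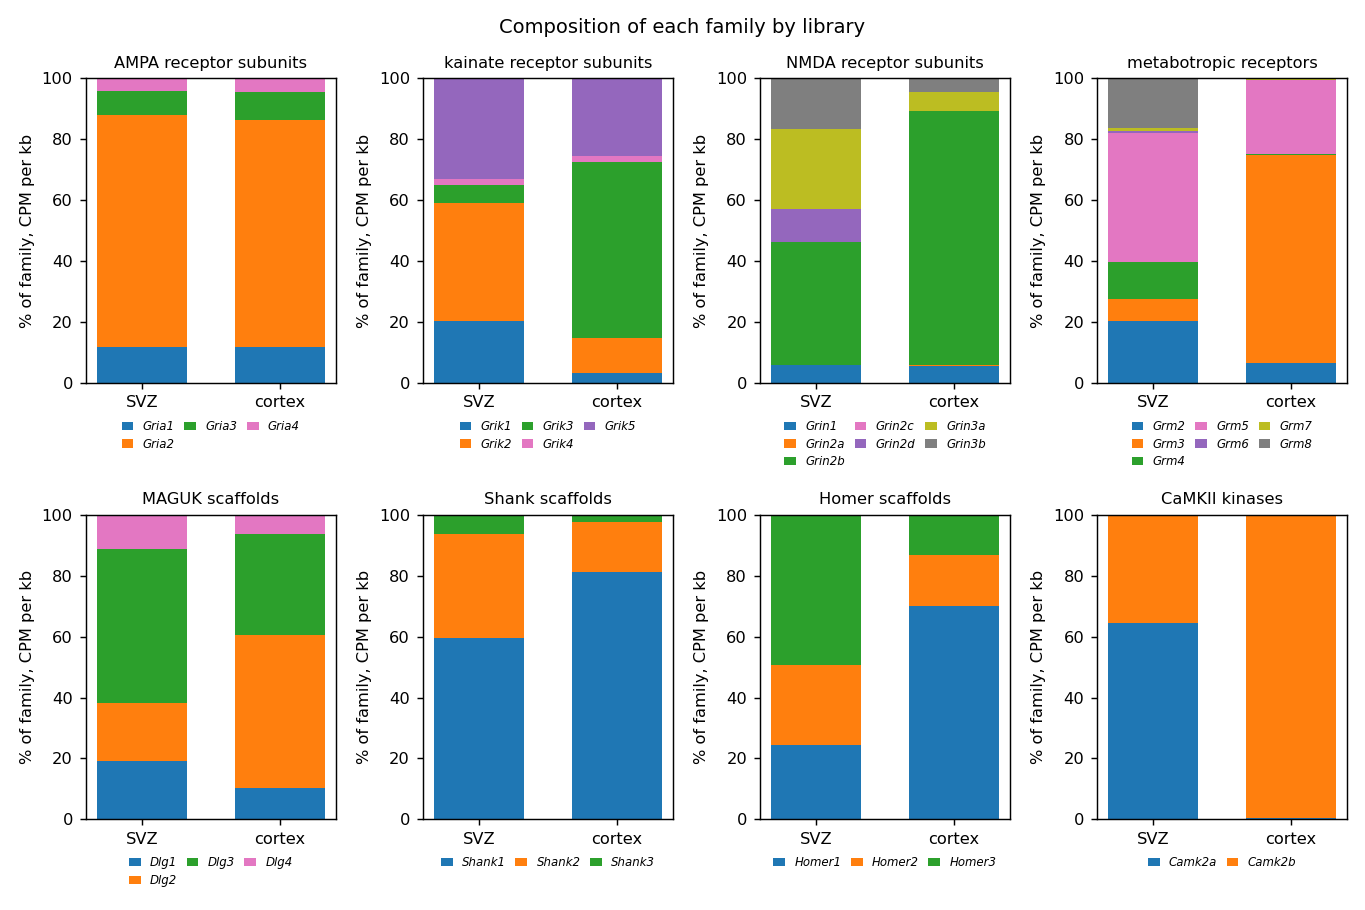
Share of each gene in the summed CPM per kb of exon of its family (percent), for the SVZ and cortex libraries, in 8 families. The AMPA subunit bars look alike, *Grik3* goes from 5.86% to 57.8% of the kainate subunits, *Grm3* from 7.33% to 68.2% of the metabotropic receptors, and *Camk2a* from 64.6% to 0.287% of the CaMKII pair.

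The MAGUK scaffolds bind receptors and their auxiliary subunits through PDZ domains. Of the 4, *Dlg2* stood apart, with 546 reads in the SVZ and 1275 in the cortex, or 10.6 and 57.8 CPM. It was 5.45-fold higher in the cortex (log2 -2.45, -2.59 to -2.30). *Dlg4*, which encodes PSD-95, the leading scaffold of mature excitatory synapses, had nearly equal levels at 5.17 CPM (266 reads) and 5.71 CPM (126 reads), with a log2 ratio of -0.14 (-0.46 to 0.17).

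*Dlg1* likewise stood at 7.12 CPM in the SVZ (366 reads) and 7.66 CPM in the cortex (169 reads), or -0.11 (-0.37 to 0.16). *Dlg3*, a scaffold of young synapses, stood at 10.2 CPM (526 reads) and 13.7 CPM (302 reads), or -0.42 (-0.63 to -0.21). The difference from *Dlg4* was -2.30 for *Dlg2* (-2.65 to -1.95), while the intervals for *Dlg1* (0.04, -0.38 to 0.45) and *Dlg3* (-0.28, -0.66 to 0.10) held 0. By CPM per kb *Dlg3* gave 50.6% of the family in the SVZ and 33.3% in the cortex, and *Dlg2* 18.9% and 50.4% (25.3% and 60.3% with the longest transcript as length). *Dlg1* gave 19.2% and 10.1%, and *Dlg4* 11.3% and 6.13%.

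The Shank genes, which encode the large scaffolds that link MAGUK complexes to Homer and actin, were higher in the cortex. *Shank1* had 151 reads in the SVZ and 684 in the cortex, or 2.94 and 31.0 CPM, a 10.6-fold higher level in the cortex (log2 -3.40, -3.67 to -3.15). *Shank2* had 88 and 144 reads, or 1.71 and 6.53 CPM (-1.93, -2.33 to -1.54), just short of 4-fold. *Shank3* was scarce, with 14 and 16 reads, or 0.272 and 0.726 CPM (-1.41, -2.56 to -0.29). *Shank2* and *Shank3* were less in favour of the cortex than *Shank1*, by 1.47 (0.99 to 1.94) and 1.99 (0.80 to 3.15). *Shank1* gave 59.7% of the family per kb in the SVZ and 81.1% in the cortex.

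The Homer genes, which encode adaptors between group I metabotropic receptors, calcium stores and Shank, took 3 different courses. *Homer1* had 1579 reads in the SVZ and 4073 in the cortex, or 30.7 and 185 CPM, a 6.02-fold higher level in the cortex (log2 -2.59, -2.67 to -2.50). *Homer2* had 1786 and 1028 reads, or 34.7 and 46.6 CPM (-0.43, -0.54 to -0.31). *Homer3* was higher in the SVZ, with 918 and 221 reads, or 17.8 and 10.0 CPM (0.83, 0.62 to 1.05).

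Relative to *Homer1*, *Homer2* differed by 2.16 (2.02 to 2.30) and *Homer3* by 3.42 (3.19 to 3.66). Per kb, *Homer3* led in the SVZ with 49.4% of the family, ahead of *Homer2* (26.2%) and *Homer1* (24.4%). In the cortex *Homer1* led with 70.0%, ahead of *Homer2* (16.8%) and *Homer3* (13.2%). The places behind the leader changed with the longest transcript as length, where *Homer1* (34.9%) came before *Homer2* (20.6%) in the SVZ. *Homer3* shares 25.4% of its exon bases with *Ddx49* on the opposite strand. Its strand-wise sums of 2027 and 558 reads were more than 2-fold the counts used, which gave it 68.3% of the family in the SVZ and 27.8% in the cortex, so its level and its share are uncertain. The direction of its ratio was the same.

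The CaMKII genes went opposite ways, by the widest margin of the 20 pairs compared. *Camk2b*, whose kinase binds actin and is prominent in young neurons, had 145 reads in the SVZ and 3821 in the cortex, or 2.82 and 173 CPM (chr11:5969644-6066362, minus strand). It was 61.5-fold higher in the cortex (log2 -5.94, -6.19 to -5.70). *Camk2a*, the leading form of the mature forebrain, had 216 reads in the SVZ and 9 in the cortex, or 4.20 and 0.408 CPM.

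*Camk2a* was thus 10.3-fold higher in the SVZ (log2 3.36, 2.41 to 4.51), and equal CPM would have given 92.6 reads in the cortex. The difference between *Camk2a* and *Camk2b* was 9.30 (8.31 to 10.47). Per kb, *Camk2a* gave 64.6% of the pair in the SVZ and 0.287% in the cortex. The *Camk2a* level in the SVZ was low in itself, at 0.563 CPM per kb, where *Gria2* stood at 43.4. With a pseudocount of 1 CPM its log2 ratio was 1.88 and it was no longer past 4-fold.

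**Figure D3:**
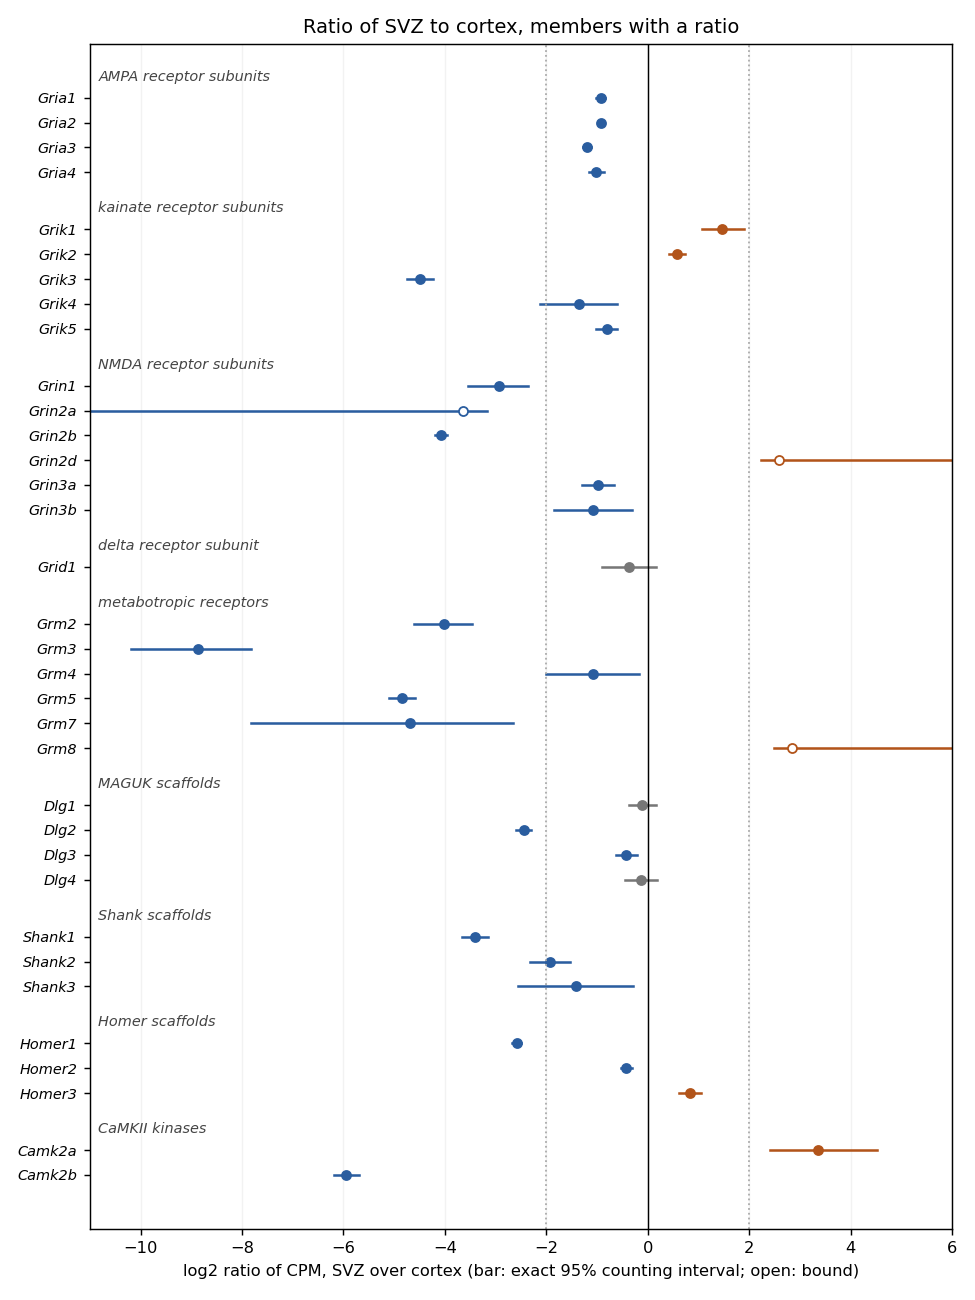
Log2 ratio of SVZ over cortex CPM for the 34 members with a ratio, grouped by family, with exact 95% counting intervals as bars, open symbols for bounds and dotted lines at 4-fold. Blue marks intervals towards the cortex, orange towards the SVZ and grey those that hold 0. *Grm3* at -8.87 and *Camk2b* at -5.94 lie farthest to the left, and *Camk2a* at 3.36 farthest to the right.

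Of the 20 pairs compared within families, 14 had an interval that excluded 0 and 6 did not. The 6 were *Gria1* and *Gria4* with *Gria2*, *Dlg1* and *Dlg3* with *Dlg4*, and 2 pairs with few reads, *Grin2a* with *Grin2b* and *Grm7* with *Grm5*. By role, 6 of the 16 receptor genes that averaged 1 CPM or more were at least 4-fold higher in the cortex (37.5%) and 0 in the SVZ, with a median log2 ratio of -1.11. Among the 11 scaffold and kinase genes, 4 were at least 4-fold higher in the cortex (36.4%) and 1 in the SVZ (9.09%), with a median of -0.43. The shares of all genes past these limits were 7.01% and 10.2%.

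Across families the order of levels per kb of exon union also differed between the areas. *Gria2* was highest in both, at 43.4 CPM per kb in the SVZ and 82.4 in the cortex. In the SVZ it was followed by *Gria1* (6.80), *Homer3* (5.19), *Gria3* (4.51), *Homer2* (2.75) and *Homer1* (2.56). In the cortex it was followed by *Grm3* (20.9), *Camk2b* (19.0), *Homer1* (15.4), *Gria1* (13.0) and *Gria3* (10.4). *Grm3*, second of the 36 in the cortex on this length, was at rank 31 in the SVZ with 0.0446 CPM per kb, and *Camk2b* moved from rank 17 to rank 3. The places depend on the length used. Exon union and longest transcript are 9125 and 4125 bases for *Camk2b*, 11976 and 5713 for *Homer1*, and both 3049 for *Grm3*. The place of *Homer3* rests on its uncertain count.

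The proteins that travel with these receptors were examined next, from a list of 14 auxiliary subunits of AMPA and kainate receptors and a list of 19 partners in the postsynaptic density. Of the 33 genes, 29 averaged 1 CPM or more, and among these 12 exceeded 4-fold towards the cortex (41.4%, where 7.01% of all genes did) and 2 towards the SVZ (6.90%, where 10.2% did). The interval lay towards the cortex for 24 (82.8%, where 38.6% of all genes did) and towards the SVZ for 3 (10.3%, where 48.2% did). Their median log2 ratio was -1.43.

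Of the auxiliary subunits, 13 reached the mean, with a median of -2.37. At least 4-fold higher in the cortex were 8 (61.5%, against 7.01% of all genes), and in the SVZ 1 (7.69%, against 10.2%). The largest cortical differences were those of *Cnih3*, *Gsg1l* and *Cnih2*. *Cnih3*, a cornichon that slows AMPA receptor closing, had 252 reads in the SVZ and 2385 in the cortex, or 4.90 and 108 CPM (log2 -4.46, -4.66 to -4.28). *Gsg1l*, which dampens AMPA currents, had 17 and 220 reads, or 0.331 and 9.98 CPM (-4.92, -5.72 to -4.20). *Cnih2*, the other cornichon, had 1324 and 5320 reads, or 25.7 and 241 CPM (-3.23, -3.32 to -3.14).

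Against that direction, *Cacng5*, a member of the TARP family that carries AMPA receptors, had 760 reads in the SVZ and 35 in the cortex, or 14.8 and 1.59 CPM (log2 3.22, 2.73 to 3.75). Its relative *Cacng7* had 25 reads in the SVZ and 0 in the cortex, below the expression minimum. The AMPA subunits themselves lay within a narrow band of ratios, from -1.20 to -0.92, and the auxiliary subunits ranged from -4.92 to 3.22.

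Of the postsynaptic density partners, 16 reached the mean, 4 were at least 4-fold higher in the cortex and 1 in the SVZ, with a median of -1.07. *Grip2*, which binds the tail of AMPA receptors, had 24 reads in the SVZ and 367 in the cortex, or 0.467 and 16.6 CPM (log2 -5.16, -5.82 to -4.56). *Baiap2*, a regulator of actin that binds Shank, had 185 and 1736 reads, or 3.60 and 78.7 CPM (-4.45, -4.68 to -4.23). *Cnksr2*, a scaffold of Ras signalling, had 175 and 1037 reads, or 3.40 and 47.0 CPM (-3.79, -4.03 to -3.56). *Grip1*, the relative of *Grip2*, stood at 41.0 and 62.9 CPM (-0.62, -0.72 to -0.52).

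The largest ratio towards the SVZ was that of a further CaMKII gene. *Camk2d* had 2448 reads in the SVZ and 22 in the cortex, or 47.6 and 0.998 CPM (log2 5.58, 4.97 to 6.25). *Camk2g* was high in both, with 3972 and 3333 reads, or 77.2 and 151 CPM (-0.97, -1.04 to -0.90). *Iqsec1*, an exchange factor for Arf proteins, was the remaining partner whose interval lay towards the SVZ, with 289 and 91 reads (0.45, 0.10 to 0.80). Thus the 4 CaMKII genes had ratios of 5.58, 3.36, -0.97 and -5.94 for *Camk2d*, *Camk2a*, *Camk2g* and *Camk2b*.

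**Figure D4:**
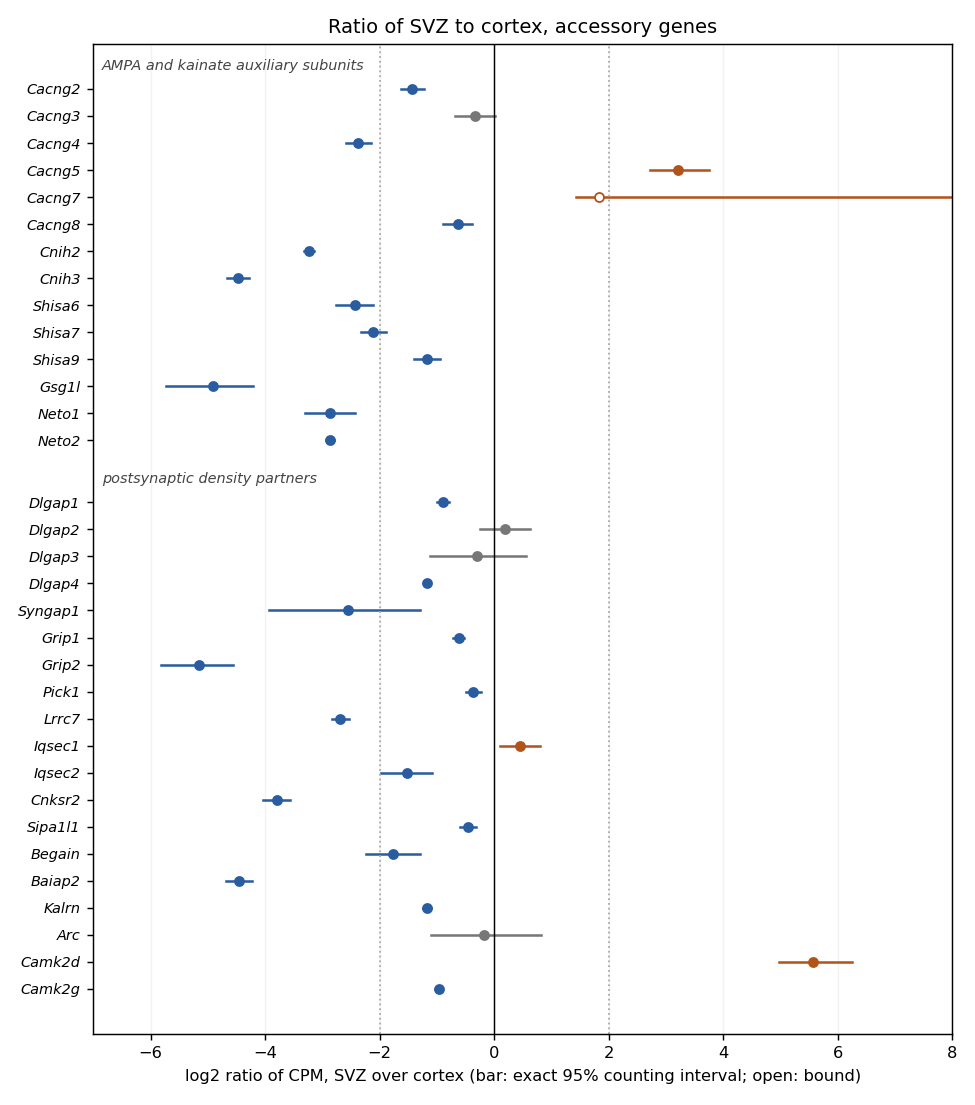
Log2 ratio of SVZ over cortex CPM for 33 accessory genes in 2 lists, auxiliary subunits and postsynaptic density partners, with exact 95% counting intervals as bars, an open symbol for a bound and dotted lines at 4-fold. Most points lie left of 0, and *Cacng5* at 3.22 and *Camk2d* at 5.58 lie to the right of the upper 4-fold line.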

How the data were processed

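Fresh-frozen E16.5 mouse brain sections were stained with haematoxylin and eosin, and the SVZ and the cortex were cut by LCM. Per the study's methods and the submitters' processing notes, adapters were trimmed with cutadapt 4.1, and read 1 was mapped to mm10 with STAR 2.7.9a, which counted reads per gene. The notes also name SAMtools 1.9, Subread 2.0.3 with featureCounts, and deepTools 3.5.1. The deposited values are raw counts per gene made by the authors, in 3 columns per library, of which the unstranded one was used. STAR drops reads that map to several places or overlap more than 1 gene, so overlapping genes are undercounted. For the LCM libraries the sources used here give no annotation release and mention neither molecular identifiers nor duplicate removal. A deposited table of the authors' CPM, fold changes and log10 changes was not used.

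CPM was computed on the reads assigned to genes (51435667 and 22050693, 59.0% and 59.1% of all reads). Unmapped, multimapping, unassigned and ambiguous reads were left out. Ratios had no pseudocount, a limit of 3 reads for a count of 0, and exact 95% intervals (scipy 1.17.1). Pairs were compared by the exact conditional odds ratio. No test between the areas was possible with 1 library each, so calls rest on a fixed 4-fold difference, for genes that average 1 CPM or more. Positions and exon lengths came from GENCODE M21, matched by symbol (23379 of 24411 genes, all 36 members), and upstream windows from RefSeq. All members are named, and of the accessory genes up to 3 per list and direction by the interval end nearer 0, any past 4-fold against its list's direction, and *Grip1* and *Camk2g*, which like the interneuron and glial markers were added after their values were seen. Members and lists were chosen with earlier results of these data known. Alternatives were edgeR 4.0.16 TMM and upper-quartile scaling, library totals that leave out the 10 most counted genes, size factors from DESeq2 1.42.0, strand-wise sums, thinning, a pseudocount of 1 CPM, other minimums and folds, and longest-transcript lengths. The ratio procedure was also run on simulated counts that held only counting error, the error its intervals assume. PCR copies and spread between samples were not simulated, so the run could not test for them. R 4.3.3, Python 3.11.15, numpy 2.4.6, pandas 2.3.3 and matplotlib 3.10.9 were used.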

Additional observations from a re-analysis of the deposited data

How the results depend on the processing

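The members at least 4-fold higher in the cortex numbered 8 to 12 over the alternatives that kept this fold, against 10. At a 2-fold threshold 14 members passed towards the cortex, and at a 10-fold threshold 7. The median log2 ratio of the members ranged from -1.20 to -0.92. Members at least 4-fold higher in the SVZ, 1 as reported, numbered 0 with a pseudocount of 1 CPM and with a mean of at least 10 CPM. They numbered 3 with a mean of at least 0.1 CPM or with no minimum, which let in the bounds of *Grin2d* and *Grm8*. At a 2-fold threshold 2 members passed towards the SVZ. Members whose interval lay towards the SVZ fell from 4 to 2 with a mean of at least 10 CPM, which takes out *Grik1* and *Camk2a*. Of the accessory genes, 5 passed a 10-fold threshold towards the cortex, against 12 at 4-fold. Towards the SVZ 1 passed the 10-fold threshold, and 1 passed 4-fold with a mean of at least 10 CPM, against 2. Of the recomputed member ratios, 29 moved beyond their counting interval and 209 did not, and of the pair differences 10 did and 50 did not. No member ratio changed sign. Among the pair differences, those whose interval excluded 0 kept their sign. *Gria1*/Gria2 went from -0.0047 to 0.05 with thinning and to 0.01 with the pseudocount, and *Dlg3*/Dlg4 from -0.28 to 0.05 with thinning. Under the other scalings the median log2 ratio of all genes shifted by -0.03 to -0.10. The pseudocount took the log2 ratio of *Grm3* from -8.87 to -5.83, and thinning took that of *Grin1* from -2.93 to -3.95. Using the longest transcript as length moved 45 shares within families and left 33, since exon union and transcript lengths differ. The pseudocount of 1 CPM also moved 45 shares and left 33. Depth limits the 9 members below a mean of 1 CPM, and no setting replaces a replicate. No paired analysis was possible because the SVZ and the cortex were each sequenced as 1 library.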
